A study of Mus musculus with 4 samples.

Results

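The 10 genes followed here belong to the blood vessel lining and were measured by RNA sequencing of duct cells from mouse pancreas, chosen by their symbols from the 52535 gene models counted in each library. Pecam1, Cdh5, Emcn, Vwf, Cldn5 and Eng encode proteins that mark endothelial cells, Tek and Tie1 the TIE receptors, and Angpt1 and Angpt2 the angiopoietins. All 10 members were found, and all 10 passed the filter on low counts that left 13990 genes. The libraries came from the pancreas of C57BL/6 mice, with 2 from wild type (WT 1 and WT 2) and 2 whose genotype is given as Lats1fl/fl, Lats2fl/fl and Sox9-CreER (KO 1 and KO 2). Sox9-CreER is a Cre recombinase driven from the duct gene Sox9 and switched on by tamoxifen, and Lats1 and Lats2 encode the Hippo pathway kinases, which hold YAP and TAZ in check. The comparison asks which genes change in the duct preparation when both kinases are targeted. The sources used here do not give the age, the time after induction, the way duct cells were isolated, or whether replicates were separate animals, so p-values measure only the spread between these samples.

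Angiopoietins are secreted ligands of the receptor tyrosine kinase TIE2, the product of Tek, which is found mainly on endothelial cells. ANGPT1, made largely by the cells around vessels, activates TIE2 and keeps vessels quiet and tight, while ANGPT2, made largely by endothelial cells, can block or weakly activate the receptor and is raised where vessels are remodelled. TIE1 is a related receptor that pairs with TIE2 and modulates it. PECAM1 and the cadherin CDH5 hold neighbouring endothelial cells together.

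Library totals were between 3566387 and 5925601 counts. Levels are given as CPM, that is read counts scaled to library size with TMM factors. Transcripts of the kinases themselves did not fall with the knockout label: in the order WT 1, WT 2, KO 1, KO 2, Lats1 had 50.8, 65.6, 70.0 and 79.2 CPM and Lats2 114, 102, 163 and 121 CPM. With all 4 libraries and the filter on low counts, Lats2 did not pass (log2 change 0.39, edgeR adjusted p = 0.127). It passed as higher with no such filter (log2 change 0.47, edgeR adjusted p = 0.0433). Without KO 2 its log2 change was 0.63. Counts over a whole gene model need not show the loss of single exons, so the deletion remains unchecked here and each library is called by its label. Duct markers were present in every library, with a summed level of 974 and 1289 CPM in wild type and 7592 and 7932 CPM in the libraries labelled knockout. In edgeR's quasi-likelihood test at an adjusted p of 0.05, 42.2% of all tested genes changed, 22.0% higher and 20.2% lower in the libraries labelled knockout. Upper quartile scaling shifted the log2 change of the median gene from -0.01 to -0.20, and higher genes then made up 39.4% of the changed genes in place of 52.1%.

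The endothelial markers and both TIE receptors were mostly lower in the libraries labelled knockout, while both angiopoietins were higher. Pecam1, Cdh5, Vwf, Tek and Tie1 fell, Angpt1 and Angpt2 rose, and Emcn, Cldn5 and Eng did not pass the test. That is 5 of 10 lower against a background of 20.2% and 2 of 10 higher against 22.0%. The members were chosen with earlier results of these data known, so these shares describe them and do not test them. The members' median log2 change was -0.59, against -0.01 over all tested genes. In 9 of the 10 members, Eng being the exception, the groups did not overlap, which held for 74.3% of all tested genes, so this count says little about the members. Pecam1, Tek and Tie1 passed in the full fit and in each of the 4 fits that left out 1 library, as did 21.8% of the genes tested in all of them. In a mixed tissue, fewer endothelial cells, less RNA per endothelial cell and more RNA from other cells cannot be told apart.

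**Figure D1:**
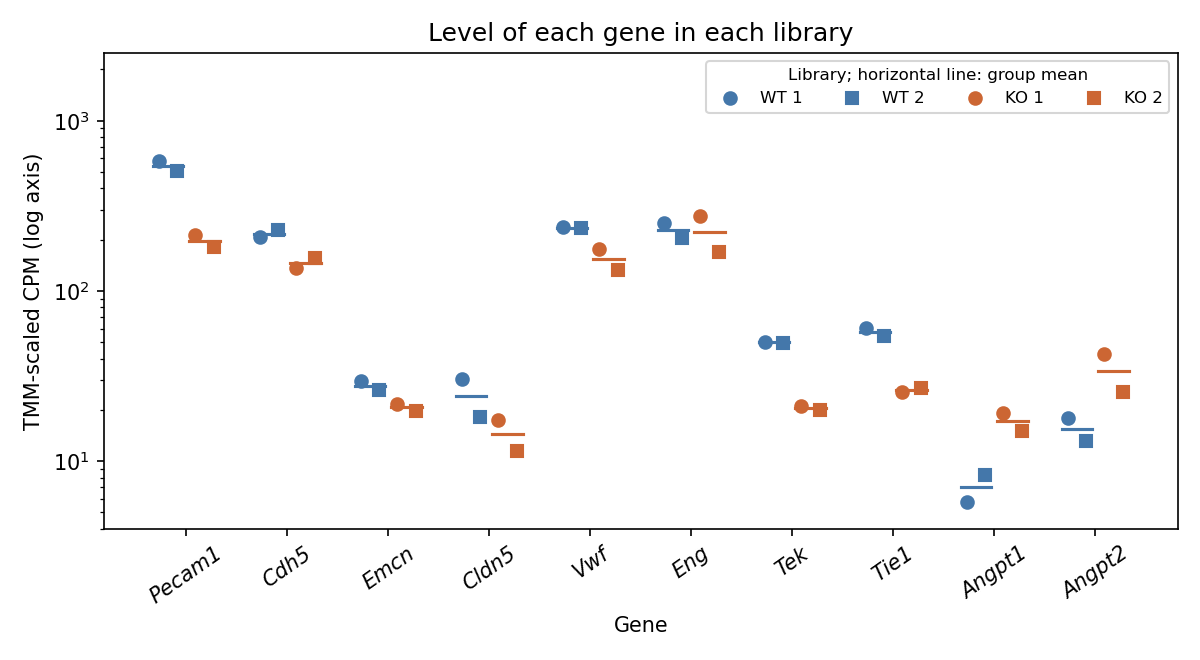
Level of the 10 genes in each library, as TMM-scaled CPM on a log axis. Blue symbols are the wild-type and orange the KO-labelled libraries, circles replicate 1 and squares replicate 2, and horizontal lines are group means (n = 2). Pecam1 falls from 581 and 507 CPM to 213 and 181 CPM, and Angpt1 rises from 5.77 and 8.32 CPM to 19.1 and 15.1 CPM.

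Pecam1 (mm10, chromosome 11, 106654217 to 106750628, minus strand) encodes CD31, an adhesion protein of endothelial junctions that is also found on platelets and many white blood cells. WT 1 had 581 and WT 2 had 507 CPM of it, KO 1 had 213 and KO 2 had 181 CPM. Both libraries labelled knockout were thus far below both wild-type libraries. The fall was 2.76-fold, from 544 ± 52.1 to 197 ± 23.1 CPM (SD, n = 2), with a log2 change of -1.47 ± 0.17 SE (edgeR adjusted p = 0.000307). Cdh5 (chromosome 8, 104101625 to 104144511, plus strand) encodes VE-cadherin, the adherens junction cadherin of endothelium and the more restricted marker. Its levels were 207 and 228 CPM in wild type and 137 and 156 CPM in the libraries labelled knockout, so the groups were separate but closer. Cdh5 fell 1.49-fold, with a log2 change of -0.57 ± 0.16 SE (edgeR adjusted p = 0.0208). This call was lost without WT 1 (-0.62, edgeR adjusted p = 0.0609), without WT 2 (-0.50, edgeR adjusted p = 0.131) and without KO 1 (-0.48, edgeR adjusted p = 0.0747). In such fits the lone library of a group is assumed to vary like the other group.

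The ratio of Pecam1 to Cdh5 counts within a library does not depend on how libraries are scaled. It was 2.81 and 2.23 in WT 1 and WT 2 and 1.56 and 1.16 in KO 1 and KO 2, lower in both libraries labelled knockout by 0.89 on the log2 scale of the mean. The exact two-sided permutation test over the 4 libraries gave p = 0.333, the smallest that 2 against 2 allows. Genes of T and B cells, some of which carry PECAM1, differed in the same direction. All 10 T and B cell genes fell (8 to 10 when 1 library was left out), and their summed level was 1570 and 1492 CPM in wild type and 101 and 45.3 CPM in the libraries labelled knockout, with no marker at 0 counts in either group. Genes of macrophages, which are white blood cells too, differed in the other direction. All 12 macrophage genes rose, with a summed level of 676 and 641 CPM in wild type and 6562 and 4730 CPM in the libraries labelled knockout. The part of any white blood cells in the fall of Pecam1 was not tested.

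Vwf (chromosome 6, 125546774 to 125686679, plus strand) encodes von Willebrand factor, the large clotting protein that endothelial cells store and that tethers platelets. It stood at 237 and 234 CPM in wild type and at 176 CPM in KO 1 and 133 CPM in KO 2. The wild-type libraries were nearly equal, and KO 1 lay between them and KO 2. Vwf fell 1.52-fold (log2 change -0.61 ± 0.18 SE, edgeR adjusted p = 0.0258). The call was lost without WT 1 (-0.58, edgeR adjusted p = 0.0977), without WT 2 (-0.61, edgeR adjusted p = 0.0873) and without KO 2 (-0.38, edgeR adjusted p = 0.121). Platelets also hold von Willebrand factor. The 9 platelet and megakaryocyte genes summed to between 11.3 and 21.1 CPM in each library, and Gp6 had 0 counts in all 4. Of these genes 2 could be tested, and Itga2b, the platelet integrin gene, fell 3.94-fold, from 11.8 and 15.1 CPM to 3.22 and 3.56 CPM (edgeR adjusted p = 0.0028), passing also in each fit without 1 library. Pf4, the other tested gene, was higher in the libraries labelled knockout without passing (log2 change 0.93, edgeR adjusted p = 0.146). Added over the libraries of a group, Gp1bb had 1 count in wild type and 18 in the libraries labelled knockout. In the same order Gp1ba had 9 and 19 counts, Ppbp 0 and 5, Treml1 0 and 3, and Gp9 2 and 0. The part of platelets in the fall of Vwf was not tested. Per count of Cdh5, Vwf had 1.14 and 1.03 in wild type and 1.29 and 0.853 in the libraries labelled knockout, and these ranges overlapped.

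Emcn and Cldn5 had lower levels in both libraries labelled knockout but did not pass. Emcn (chromosome 3, 137341067 to 137432185, plus strand) encodes endomucin, a sialomucin of capillary and venous endothelium. It was at 29.4 and 26.1 CPM in wild type and at 21.7 CPM in KO 1 and 19.7 CPM in KO 2, which differed by -0.42 ± 0.22 SE on the log2 scale (edgeR adjusted p = 0.165). Cldn5 (chromosome 16, 18776847 to 18778260, plus strand) encodes claudin-5, the main tight junction claudin of endothelium. It was at 30.2 and 18.2 CPM in wild type and at 17.5 CPM in KO 1 and 11.5 CPM in KO 2, so that WT 2 nearly met KO 1. Its log2 difference was -0.74 ± 0.33 SE (edgeR adjusted p = 0.106), and it passed without WT 2 (-1.06, edgeR adjusted p = 0.0445). The difference was smaller without WT 1 (-0.32, edgeR adjusted p = 0.553) and without KO 2 (-0.43, edgeR adjusted p = 0.442). Upper quartile scaling brought both close to the threshold, with differences of -0.62 for Emcn and -0.93 for Cldn5 (edgeR adjusted p = 0.0544 and 0.0504).

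Eng (chromosome 2, 32646595 to 32682669, plus strand) encodes endoglin, the TGF-beta and BMP co-receptor of endothelium, which macrophages and stromal cells also make. WT 1 had 252 and WT 2 had 205 CPM of it, KO 1 had 276 and KO 2 had 169 CPM. Both wild-type values lay between the values of the libraries labelled knockout, and the log2 difference was -0.04 ± 0.24 SE (edgeR adjusted p = 0.915). The difference was -0.43 without KO 1 and 0.30 without KO 2, passing in neither fit (edgeR adjusted p = 0.1398 and 0.2548). Macrophage and fibroblast genes were higher in the same libraries. All 12 macrophage genes rose, with a summed level of 676 and 641 CPM in wild type and 6562 and 4730 CPM in KO 1 and KO 2. Of 8 fibroblast genes 7 rose, summing to 2948 and 2572 CPM in wild type and 14974 and 9558 CPM in KO 1 and KO 2. Both lists had no gene at 0 counts, and KO 1 exceeded KO 2 in both as in Eng. Their part in the level of Eng was not tested. Exons of Eng overlap those of Fpgs on the opposite strand, which had between 56 and 106 counts a library, and the sources used here do not say whether strand was used in counting.

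Tek and Tie1 lie on chromosome 4, at 94739289 to 94874976 (plus strand) and 118471191 to 118490061 (minus strand). Tek was at 50.3 and 49.7 CPM in wild type and at 20.9 and 20.1 CPM in the libraries labelled knockout. Tie1 was at 60.2 and 54.6 CPM in wild type and at 25.6 and 26.7 CPM in the libraries labelled knockout. For both receptors the replicates of a group lay close together and the groups far apart. Tek fell 2.44-fold (log2 change -1.29 ± 0.20 SE, edgeR adjusted p = 0.00134) and Tie1 2.19-fold (-1.13 ± 0.20 SE, edgeR adjusted p = 0.00219). Leaving out 1 library gave log2 changes between -1.31 and -1.22 for Tek and between -1.20 and -1.05 for Tie1. The ratio of Tek to Tie1 counts was 0.836 and 0.909 in wild type and 0.819 and 0.752 in the libraries labelled knockout, a mean log2 difference of -0.15 (exact permutation p = 0.333, the smallest possible).

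Per count of Cdh5, Tek was at 0.243 and 0.218 in wild type and at 0.153 and 0.129 in the libraries labelled knockout. Tie1 was at 0.291 and 0.240 per Cdh5 count in wild type and at 0.187 and 0.172 in the libraries labelled knockout. Both receptors therefore had lower values relative to VE-cadherin in each library labelled knockout than in each wild-type library, by 0.71 and 0.56 on the log2 scale (exact permutation p = 0.333 for each, the smallest possible). Emcn, Vwf, Cldn5 and Eng overlapped between the groups when counted per Cdh5. Counted per Pecam1 and Cdh5 together the picture was different for several genes. Tie1 then had 0.0764 and 0.0743 in wild type and 0.0730 and 0.0794 in the libraries labelled knockout, which overlapped. Tek had 0.0639 and 0.0676 in wild type and 0.0598 and 0.0597 in the libraries labelled knockout, lower by 0.14 on the log2 scale. Emcn, Vwf and Eng were higher in both libraries labelled knockout on this base, with log2 differences of 0.73, 0.53 and 1.08, and Cldn5 overlapped. Where a gene stands relative to other endothelial transcripts thus depends on whether Pecam1, which fell most, is part of the base.

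**Figure D2:**
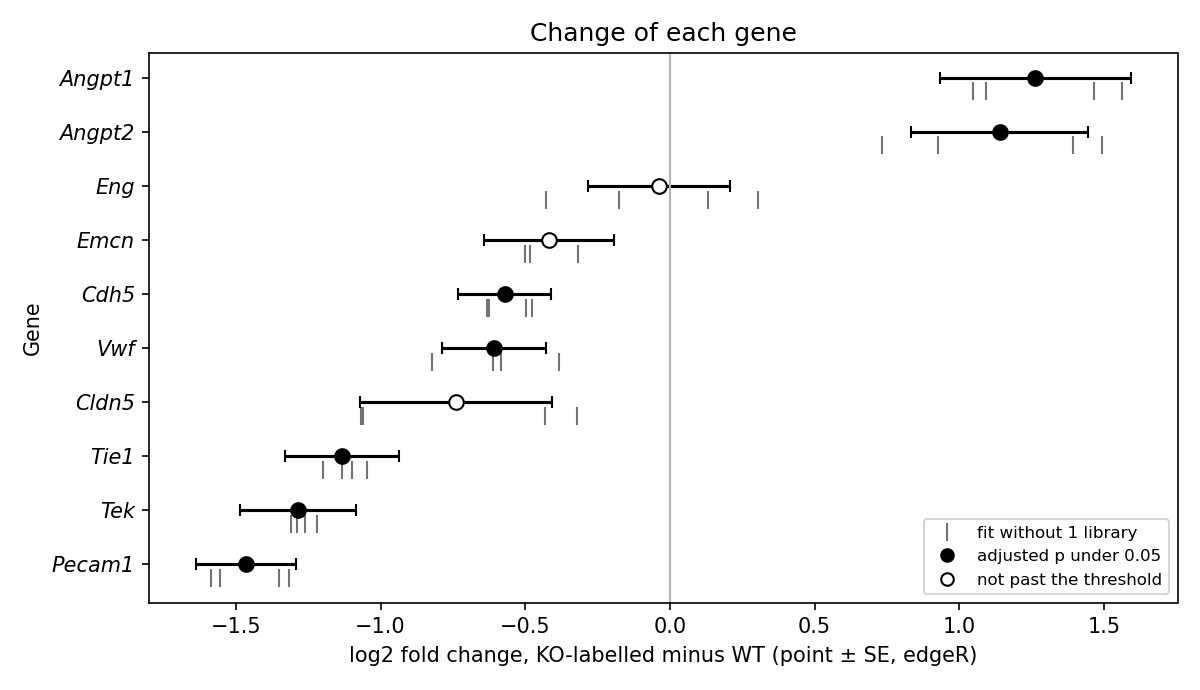
Log2 fold change of the 10 genes, KO-labelled minus wild type, as the edgeR estimate with its standard error (n = 2 in each group). Filled points have an adjusted p under 0.05, and grey ticks are the estimates when 1 library is left out. Pecam1 (-1.47), Tek (-1.29) and Tie1 (-1.13) lie at the bottom, Eng (-0.04) near 0, and Angpt2 (1.14) and Angpt1 (1.26) at the top.

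The promoters of Tek, Emcn and Eng are shown because these genes span a fall that passed the test, a difference that did not, and a difference near 0. Each line gives the 250 bases before the RefSeq start site (GRCm38.p6, plus strand), at chr4:94739039-94739288, chr3:137340828-137341077 and chr2:32646345-32646594. Capitals mark matches to the letters AGGAAG or its reverse complement CTTCCT, a core bound by ETS factors such as ERG and FLI1, which set endothelial gene expression.
Tek: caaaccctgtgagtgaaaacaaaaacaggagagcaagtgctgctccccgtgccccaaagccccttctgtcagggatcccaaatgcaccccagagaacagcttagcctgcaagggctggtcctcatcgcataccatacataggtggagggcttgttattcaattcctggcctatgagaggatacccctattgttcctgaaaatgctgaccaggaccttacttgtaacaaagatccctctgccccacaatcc
Emcn: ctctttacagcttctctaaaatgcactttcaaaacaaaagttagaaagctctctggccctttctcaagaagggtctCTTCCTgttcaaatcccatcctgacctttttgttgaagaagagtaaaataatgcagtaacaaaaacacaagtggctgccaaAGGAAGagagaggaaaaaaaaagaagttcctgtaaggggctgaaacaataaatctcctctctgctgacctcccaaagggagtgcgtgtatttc
Eng: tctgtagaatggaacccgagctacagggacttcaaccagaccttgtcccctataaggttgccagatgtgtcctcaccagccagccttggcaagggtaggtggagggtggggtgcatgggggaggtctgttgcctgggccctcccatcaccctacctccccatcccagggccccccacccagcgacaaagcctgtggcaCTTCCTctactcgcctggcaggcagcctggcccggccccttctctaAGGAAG
The RefSeq table held 5 of the 10 members (Tek, Tie1, Emcn, Cldn5 and Eng). The ETS letters were in 3 of these 5 windows, 2 times in Emcn and Eng and 1 time in Tie1, and in 29.5% of all 32851 promoter windows of that length. On either strand, the TEAD core GGAATG was in 0 of the 5 windows (12.6% of all) and the AP-1 site TGANTCA in 0 of 5 (6.75% of all). The ETS and TEAD letters share the run GGAA, with no overlapping match in these windows. Tek, with the second largest fall, had no ETS match of these letters, and Eng, with the difference nearest 0, had a pair of them. Matches are a description of letters and not evidence of binding.

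Angpt1 (chromosome 15, 42424727 to 42676977, minus strand) had the fewest reads of the 10 genes, with 21 and 37 counts in wild type and 95 and 93 counts in the libraries labelled knockout. Scaled, WT 1 had 5.77 and WT 2 8.32 CPM, KO 1 had 19.1 and KO 2 15.1 CPM. Each library labelled knockout was above each wild-type library. Angpt1 rose 2.40-fold, with a log2 change of 1.26 ± 0.33 SE (edgeR adjusted p = 0.0152). Its call was lost when WT 1 was left out (1.05, edgeR adjusted p = 0.0715) and when KO 1 was (1.09, edgeR adjusted p = 0.107).

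Angpt2 (chromosome 8, 18690263 to 18741562, minus strand) stood at 17.9 and 13.0 CPM in wild type and at 42.5 CPM in KO 1 and 25.6 CPM in KO 2. KO 1 was the highest, and KO 2 was closer to WT 1 than to KO 1. Angpt2 rose 2.20-fold, with a log2 change of 1.14 ± 0.31 SE (edgeR adjusted p = 0.0174). Its call was lost when WT 2 was left out (0.93, edgeR adjusted p = 0.0914) and when KO 1 was (0.73, edgeR adjusted p = 0.1503). Its gene model lies inside Mcph1 on the opposite strand, without shared exons, and Mcph1 had between 19 and 63 counts a library.

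The balance between the ligands did not move in 1 direction. Angpt2 had 3.10 and 1.57 counts per count of Angpt1 in wild type and 2.22 and 1.70 in the libraries labelled knockout, and both of the latter lay between the wild-type values (log2 difference -0.18, exact permutation p = 1.0). Without 1 library the log2 difference ranged from -0.67 to 0.31. The balance of ligand to receptor transcripts was chosen for inspection after the values were seen. Angpt1 and Angpt2 together had 0.470 and 0.430 counts per count of Tek in wild type and 2.94 and 2.02 in the libraries labelled knockout. That is 5.43-fold higher on the mean log2 ratio, with separate groups (exact permutation p = 0.333, the smallest possible).

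**Figure D3:**
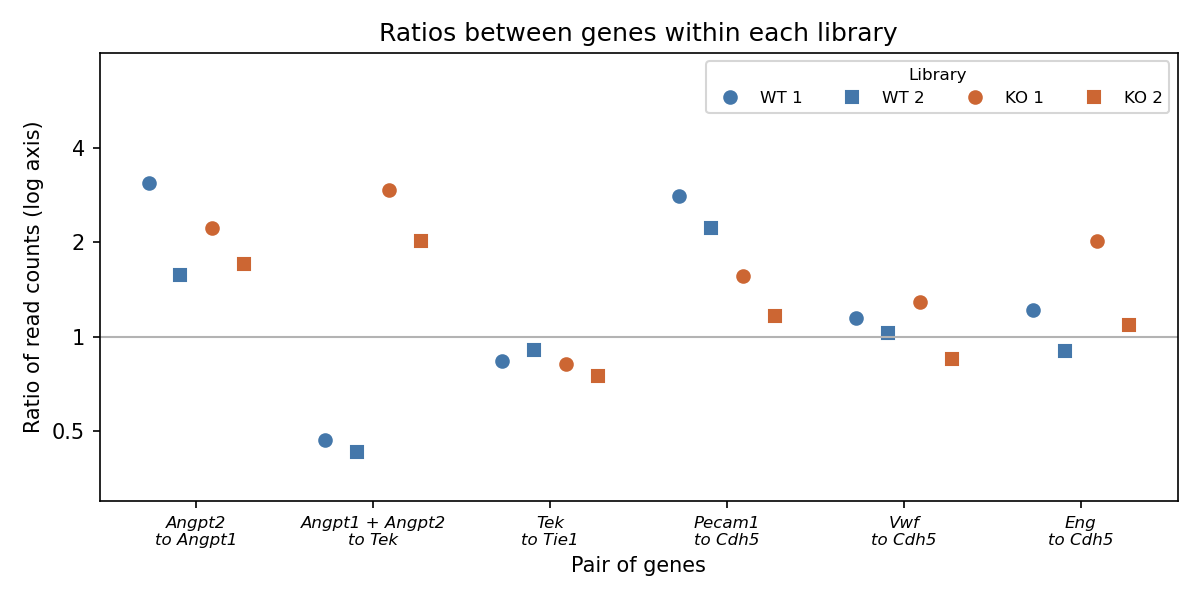
Ratios of read counts between genes within each library, on a log axis, with the grey line at 1 (symbols and colours by library, as labelled). The ratio of both angiopoietins to Tek is 0.470 and 0.430 in wild type and 2.94 and 2.02 in the libraries labelled knockout, whereas Angpt2 to Angpt1 overlaps between the groups.

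Marker transcripts of cells that can make angiopoietins also differed between the groups, in both directions for pericytes. Among 8 pericyte genes 2 of 7 tested rose and 3 fell. The number that fell was 3 without WT 1, 2 without WT 2, 1 without KO 1 and 0 without KO 2. The summed level overlapped, with 617 and 475 CPM in wild type and 645 and 542 CPM in KO 1 and KO 2. The proteoglycan Cspg4 rose 8.28-fold and the receptor Pdgfrb 3.89-fold, while the signalling regulator Rgs5 fell 2.51-fold. Kcnj8 fell 2.19-fold and Abcc9 2.12-fold (edgeR adjusted p = 0.0335 and 0.00635). The call of Rgs5 was lost without KO 1 and without KO 2 (edgeR adjusted p = 0.160 and 0.0612) and when scaled by library totals alone (edgeR adjusted p = 0.0728). All 6 smooth muscle genes fell (3 to 5 when 1 library was left out), summing to 4440 and 3691 CPM in wild type and 1517 and 859 CPM in KO 1 and KO 2. None of the pericyte, smooth muscle or fibroblast genes was at 0 counts in a group. The part of these cells in the rise of Angpt1 and Angpt2 was not tested.

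Levels between genes were compared per kilobase of exons (the union of exons in GENCODE M21). In wild type Pecam1 was highest at 87.3 ± 8.36 CPM per kilobase (SD, n = 2), then Eng at 56.4 ± 8.22 and Cdh5 at 51.7 ± 3.49, whose ranges overlapped. Cldn5 (17.1 ± 6.00) and Vwf (14.6 ± 0.138) overlapped as well, followed by Tie1 (11.7 ± 0.801) and Tek (10.6 ± 0.0931) CPM per kilobase. Emcn (5.13 ± 0.436) overlapped Angpt2 (4.19 ± 0.925), and Angpt1 was last at 1.35 ± 0.346 CPM per kilobase. In the libraries labelled knockout Eng led at 54.97 ± 18.6 CPM per kilobase, and Cdh5 (34.8 ± 3.15) and Pecam1 (31.6 ± 3.71) overlapped. Cldn5 (10.2 ± 3.004) followed and overlapped Vwf (9.62 ± 1.92). There Angpt2, at 9.22 ± 3.24 CPM per kilobase, also overlapped Vwf and lay above Tie1 (5.31 ± 0.166) and Tek (4.35 ± 0.129). In wild type it had lain below both receptors. Angpt1 remained last, at 3.28 ± 0.552 CPM per kilobase, and overlapped Emcn (3.83 ± 0.260).

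Other genes of endothelial identity were mostly lower too. Of 32 such genes, all tested, 19 fell, 1 rose and 12 did not pass, with a median log2 change of -1.13. Leaving out 1 library left 16 to 19 that fell. Ushbp1 fell 8.48-fold, from 28.8 ± 4.42 to 3.31 ± 1.27 CPM, and Icam2, an adhesion protein also carried by lymphocytes and platelets, 7.78-fold (edgeR adjusted p = 0.000251 and 0.000135). The gene that rose was Mcam, an adhesion protein of endothelium, pericytes and some tumour cells. It was at 93.4 and 96.9 CPM in wild type and at 483 and 490 CPM in the libraries labelled knockout, a 5.11-fold rise (edgeR adjusted p = 2.36e-05). Summed, the 32 genes stood at 2213 and 2119 CPM in wild type and at 1568 and 1487 CPM in the libraries labelled knockout. These sums include Mcam, whose rise makes their fall smaller.

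**Figure D4:**
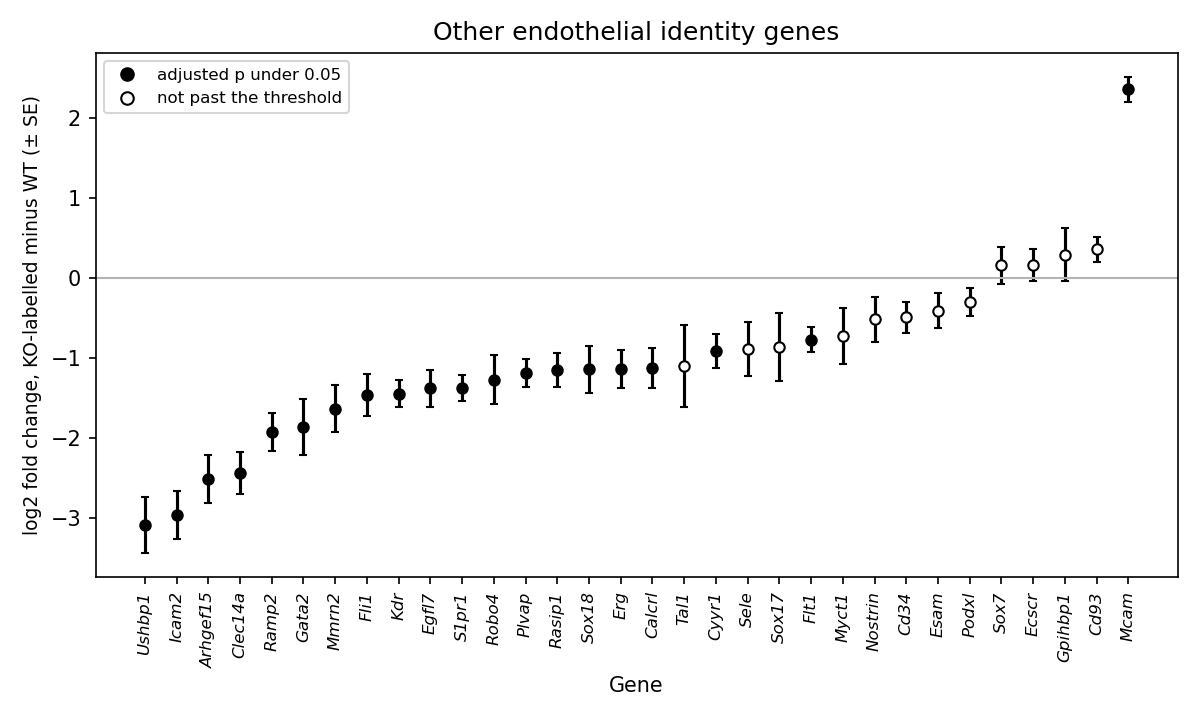
Log2 fold change, KO-labelled minus wild type, of 32 other endothelial identity genes, with the standard error of the edgeR fit. Filled points have an adjusted p under 0.05. Of these genes 19 fell, Mcam alone rose, and 12 (open points) did not pass.

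Markers of vessel types were mixed. Among 8 arterial genes 4 fell and 2 rose, and 1 to 3 fell without 1 library. The guidance receptor Unc5b rose 4.07-fold and the ephrin Efnb2, which many epithelia also make, 2.97-fold. The connexin Gja5 fell 3.95-fold from low levels (4.12 and 10.3 CPM in wild type) . Its log2 change was -1.98, and its call was lost without WT 2 (-1.15, edgeR adjusted p = 0.3002), KO 1 (-2.65, edgeR adjusted p = 0.0546) and KO 2 (-1.43, edgeR adjusted p = 0.194). Of 6 venous genes 1 fell. It was Nr2f2, the transcription factor of venous fate (log2 change -0.64, edgeR adjusted p = 0.0313), whose call was lost without any one of WT 1, WT 2 and KO 1 (edgeR adjusted p = 0.117, 0.0848 and 0.148) and when scaled by library totals alone (-0.60, edgeR adjusted p = 0.056). Of 7 genes of sprouting tip cells, the setting in which ANGPT2 is raised, 2 rose (1 or 2 without 1 library) and 3 fell. The potassium channel subunit Kcne3 fell by 1.58 on the log2 scale, and Unc5b rose as above. Of 6 lymphatic genes 2 fell, 1 to 3 without 1 library. The chemokine Ccl21a fell 24.3-fold, from 791 ± 158 to 32.6 ± 6.01 CPM, though its reads may be shared with near-identical copies.

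The other genes of the angiopoietin and TIE pathway moved in both directions. Of 15 genes, all tested, 7 rose and 2 fell, with a median log2 change of 0.37. Without 1 library, 1 to 4 rose and 1 or 2 fell. Angpt4, the ligand gene of the same family, rose 4.49-fold on 2 and 11 counts in wild type and 34 and 46 counts in the libraries labelled knockout (log2 change 2.17 ± 0.60 SE, edgeR adjusted p = 0.0194). The call was lost when WT 1 (1.54, edgeR adjusted p = 0.0623), KO 1 (2.25, edgeR adjusted p = 0.0886) or KO 2 (2.16, edgeR adjusted p = 0.104) was left out. Leaving out WT 2 raised the estimate to 3.65. Akt1, the kinase downstream of TIE2 that is made in most cells, rose 2.38-fold, from 172 ± 14.6 to 409 ± 15.8 CPM (edgeR adjusted p = 0.000458). Foxo1, the transcription factor that AKT inhibits and that drives Angpt2 in endothelium, was at 82.2 and 98.4 CPM in wild type and at 41.3 CPM in KO 1 and 29.9 CPM in KO 2. It fell 2.54-fold (edgeR adjusted p = 0.00148), so that its transcript and that of Angpt2 changed in opposite directions. Ptprb encodes VE-PTP, the endothelial phosphatase that dampens TIE2. It was at 180 and 199 CPM in wild type and at 128 CPM in KO 1 and 110 CPM in KO 2, a 1.59-fold fall (edgeR adjusted p = 0.0114) whose call was lost when WT 2 (-0.59, edgeR adjusted p = 0.0755) or KO 2 (-0.53, edgeR adjusted p = 0.0585) was left out.

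Partners of endoglin moved in both directions. Of 17 genes, 15 of them tested, 7 rose and 2 fell, with a median log2 change of 0.55. Without 1 library, 4 to 6 rose and 0 or 1 fell. The type I receptor Tgfbr1 rose 3.05-fold and Id2, a target of BMP and TGF-beta signals, 3.23-fold (edgeR adjusted p = 0.000201 and 0.000169). Acvrl1, which encodes the endothelial receptor ALK1, was at 85.2 and 53.9 CPM in wild type and at 41.7 CPM in KO 1 and 22.8 CPM in KO 2, a 2.16-fold fall (edgeR adjusted p = 0.0409). Its call was lost when WT 1 (-0.74, edgeR adjusted p = 0.148) or KO 2 (-0.71, edgeR adjusted p = 0.162) was left out. Id3, a BMP target in endothelium, fell 1.58-fold (edgeR adjusted p = 0.032). Its call was lost when any one of WT 2, KO 1 and KO 2 was left out (edgeR adjusted p = 0.182, 0.130 and 0.0587) and under DESeq2 (adjusted p = 0.053). The ALK1 ligand genes Gdf2 and Bmp10 had 9 and 2 counts in WT 1, and 0 counts in WT 2, KO 1 and KO 2.

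Beside these genes, markers of other cells moved widely, as the plot of summed marker levels shows. The duct, macrophage and fibroblast sums were higher and the lymphocyte and smooth muscle sums lower in the libraries labelled knockout, while the pericyte and platelet sums overlapped. The lymphatic sum was lower too, at 1160 and 867 CPM in wild type and 219 and 163 CPM in the libraries labelled knockout, and most of it in wild type was Ccl21a (903 and 680 CPM). Krt7, a duct keratin, rose 19.6-fold, Fcgr1, a macrophage Fc receptor, 23.0-fold, and Cd8a, a T cell co-receptor, fell 93.2-fold. Acinar enzyme genes summed to 42849 and 76875 CPM in wild type and to 142 and 3459 CPM in KO 1 and KO 2, and 1 of 8 passed as lower. All 8 passed as lower without KO 1 and without KO 2. The part of such shifts in the members' changes was not tested.

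**Figure D5:**
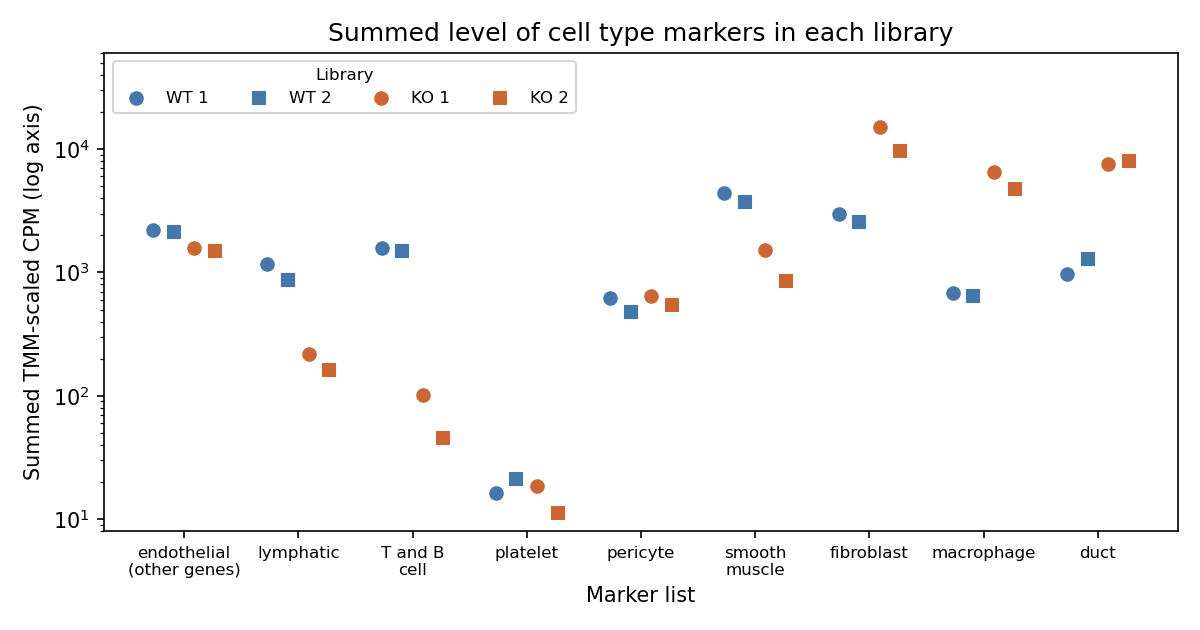
Summed TMM-scaled CPM of marker genes of 9 cell types in each library, on a log axis. The endothelial sum goes from 2213 and 2119 CPM to 1568 and 1487 CPM, a smaller shift than those of the T and B cell markers (1570 and 1492 to 101 and 45.3 CPM) or the macrophage markers (676 and 641 to 6562 and 4730 CPM). Mcam, which rose, is part of the endothelial sum. It was at 93.4 and 96.9 CPM in wild type and at 483 and 490 CPM in the libraries labelled knockout.

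The genes whose profile over the 4 libraries was most like the mean profile of Pecam1, Cdh5 and Tie1 were Trim56, Creb1, Hdac1, Ccdc88b, Rpl12 and Ogfrl1. Likeness was the root mean square difference of centred log2 CPM, which was 0.0213 for Trim56 and 0.0325 for Ogfrl1 among 11191 candidate genes, against 0.0480 for Tie1, 0.228 for Pecam1 and 0.259 for Cdh5 themselves. With 4 libraries in 2 groups the measure mostly picks genes that differ between the groups by the same amount, and none of the 6 is on the endothelial lists.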

How the data were processed

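Each library has 1 deposited table of unnormalized whole-number counts for every gene model. Per the submitters' processing notes the build was mm10 and TopHat and edgeR were used, with no versions. The sources used here do not name the counting program, its annotation or its use of strand. Model coordinates are given here from 1. From these, edgeR 4.0.16 in R 4.3.3 was used to drop low genes (filterByExpr), compute TMM factors and run the quasi-likelihood test (estimateDisp, robust glmQLFit, glmQLFTest), with genotype as the only term, all 4 libraries and 2 residual degrees of freedom. P-values were adjusted by Benjamini-Hochberg over all 13990 genes. Levels are TMM-scaled CPM. The code was tested on simulated data. The replicate numbers are not stated to pair samples. The alternatives were RLE, upper quartile and library-total scaling, DESeq2 1.42.0, other filters, a replicate block and leaving out each library. The members and lists were chosen with earlier results of these data known. Named genes are the members, Lats1 and Lats2, the 6 most alike in profile, and the largest rise and fall of a list (up to 2 each for the pathway, endothelial identity and endoglin lists). Not every list's genes are given. Pdgfrb, Abcc9, Kcnj8, Efnb2, Cgnl1, Jam2, Rab27a, Lyve1, Prox1, Flt4, Mmrn1 and Reln were named after their values were seen. So were the platelet genes Pf4, Gp1ba, Gp1bb, Gp9, Ppbp and Treml1. Counts carry no molecular identifiers. Within-library ratios were compared by a two-sided exact permutation test over the 4 libraries, except those per Pecam1 and Cdh5, which are given without a test. The ratios to Cdh5 and to Tek were added after values were seen.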

Additional observations from a re-analysis of the deposited data

How the results depend on the processing

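With RLE, upper quartile or library-total scaling, with DESeq2, with no filter and with a filter of at least 20 counts in each library of a group, 7 members passed, 5 lower and 2 higher, as in the full fit. Leaving out 1 library gave 4 to 6 members that passed, 3 to 4 lower and 0 to 2 higher: 4 passed without WT 1, 5 without WT 2, 4 without KO 1 and 6 without KO 2. Without KO 1 neither angiopoietin passed. These fits have fewer libraries, and the cause was not tested further. Over all 13990 genes tested, 5909 passed in the full fit and 5011 with DESeq2. With the replicate number as a block 8 members passed, Cldn5 being added (log2 change -0.73, edgeR adjusted p = 0.0342), and 6656 genes did. The block also ended the call of the pericyte gene Rgs5 (-1.33, edgeR adjusted p = 0.118). Deviations of same-numbered libraries correlated at 0.0355, and nothing in the labels says that the numbers pair samples. Eng, which passed in no fit, had a difference above 0 with no filter (0.03), without WT 1 (0.13) and without KO 2 (0.30). Depth limits the precision for Angpt1, with 21 counts in WT 1, and for Angpt4, with 2.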

Other observations

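Most of the junction partners of VE-cadherin and the claudins that were followed rose. Of 12 junction partners, all tested, 8 rose, 2 fell and 2 did not pass, and 8 rose in each fit that left out 1 library. Plakoglobin (Jup) rose 3.22-fold, from 79.5 ± 6.39 to 256 ± 2.18 CPM (SD, n = 2), and the junction protein Cgnl1 3.21-fold, from 108 ± 1.69 to 347 ± 11.5 CPM (edgeR adjusted p = 0.000106 and 9.33e-05). These proteins also serve epithelial junctions, and 6 of 8 duct markers rose in the same libraries. The genes that fell were Jam3 (4.37-fold) and Jam2 (1.62-fold), adhesion proteins of endothelial junctions. The call of Jam2 was lost when any one of WT 1, KO 1 and KO 2 was left out (edgeR adjusted p = 0.155, 0.0627 and 0.109).

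Among 9 partners of von Willebrand factor and its storage granule, 7 were tested, 1 rose and 2 fell. F8, the clotting factor VIII that von Willebrand factor carries, fell 13.0-fold, from 81.6 and 44.5 CPM in WT 1 and WT 2 to 6.24 and 3.56 CPM in KO 1 and KO 2 (edgeR adjusted p = 0.000451). Rab27a, a GTPase of granule release in endothelial and white blood cells, fell 4.06-fold. Cd63, a membrane protein of these granules and of lysosomes in most cells, rose 3.98-fold. The fall of F8 was larger than that of Vwf (log2 changes of -3.70 and -0.61), a difference that was not tested.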
